A study of Mus musculus with 6 samples.

Results

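Schwann cells wrap the axons of peripheral nerves, and the nerves that run through a fat depot carry their RNA into a tissue library. The transcription factor SOX10 holds Schwann cells in their lineage and drives their myelin genes. The sheath is then built from membrane proteins such as PMP22 and from the cytoplasmic protein MBP. Thyroid hormone is a classic stimulus of myelin gene expression, best known for *Mbp* in the brain. The genes described here are 7 of the 55573 listed in the deposited tables of inguinal white adipose tissue (iWAT). They were chosen by symbol: *Mbp*, *Pmp22*, *Prx*, *Sox10*, *Egfl8*, *Cnp* and *Mag*, each with a single row.

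RNA-seq was done on total RNA of inguinal fat, a subcutaneous depot, from 3 mutant and 3 Wt male C57BL/6NTac mice, all untreated, on regular chow and 3 months old, with 1 library per mouse. Mutant mice carried the homozygous knock-in K283Q/K288R in *Thra*, the gene of thyroid hormone receptor alpha, which changes a lysine used for SUMO conjugation and the nearby lysine that can take its place. The knock-in is global, so nerve, fat and all other cells of the depot carry it, and Wt mice were bred in the same facility rather than named as littermates. The comparison asks whether nerve and myelin transcripts of the depot differ between the genotypes. Values are the authors' normalized CPM, that is, read counts scaled to the depth of each library and then by a factor per mouse. Libraries held 19607423 to 24228381 reads on genes, and 3 reads corresponded to 0.126 to 0.157, a floor that covers counting error only. Transcripts of *Thra* itself were present in all mice, at 117 to 147 in Wt and 137 to 170 in mutant mice, and gene-level values do not show the point mutations.

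Some libraries stood apart in the cells they held. Summed over 8 lymphoid genes, Wt mice 1, 2 and 3 had 578, 1219.5 and 1365 normalized CPM, against 44.2, 753 and 1109.9 for mutants 1, 2 and 3, so mutant mouse 1 was nearly without lymphoid RNA. The summed level of 8 epithelial genes was 84.8 in Wt mouse 1 and 6.37 to 26.7 in the other mice. Adipocyte genes marked every library as fat, with *Adipoq* at 1332 to 2219 and *Fabp4* at 5789 to 9575. In such bulk tissue, fewer cells of a type and less RNA per cell cannot be told apart.

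All positions are on GRCm38 (mm10), the build named in the submitters' processing notes, with genes as in GENCODE M21. Because of the known link of myelin genes to thyroid hormone, RefSeq promoter windows (GRCm38.p6, 250 bases before to 50 after a start) were searched on both strands for the nuclear receptor half-site AGGTCA, for the direct repeat of that half-site spaced by 4 bases, and for the SOX core ACAANG. The tables held a window for 5 of the 7 genes, 10 windows in all. *Mbp* and *Sox10* had none, so the search does not cover them. The half-site was in 1 of the 10 windows, that of *Egfl8*, against 16.3% of 32851 windows of all genes. The spaced repeat was in 0 of the 10, against 0.0152% of all windows. The SOX core was in 5 of the 10, against 41.2% of all. These were windows of *Mag*, *Cnp* and *Egfl8*, and overlapping windows of *Mag* count the same sites more than once. A stretch from the *Egfl8* promoter is shown because it holds the only half-site, and one from *Cnp* because it holds a SOX core upstream of a gene whose values are followed below. Both are written along the gene's strand, and capitals mark the half-site in *Egfl8*, there as its reverse complement, and the SOX core in *Cnp*. The *Egfl8* stretch also holds a SOX core, which is left in lower case. Such matches describe the letters and are no sign of binding.
Egfl8 (chr17:34616063-34616122, - strand): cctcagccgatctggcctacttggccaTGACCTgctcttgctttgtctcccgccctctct
Cnp (chr11:100574745-100574804, + strand): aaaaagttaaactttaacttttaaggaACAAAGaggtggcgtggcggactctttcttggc

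None of the 7 genes differed between mutant and Wt fat beyond the spread between mice, when mice were not matched by number. All 7 were tested, and 0 passed an FDR of 0.05 with limma and 0 had an unadjusted p under 0.05. The quasi-likelihood test of edgeR and DESeq2's Wald test on the recovered reads called 0 as well. A limma fit that matched mice by number, given at the end, called 2 of the 7, beside 24.1% of all genes tested. Over the 16868 genes tested, 8.11% passed that FDR, 5.5% higher and 2.61% lower in mutant mice, and 24.2% had an unadjusted p under 0.05. The values of the genotypes overlapped for all 7, whereas 30.6% of all genes tested did not overlap. Fold changes were above 0 for 3 of the 7 and below 0 for 4, with a median log2 fold change of -0.07, beside -0.05 over all genes tested. The 95% confidence intervals all included 0 and were widest for *Sox10*, *Mag* and *Cnp*.

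**Figure D1:**
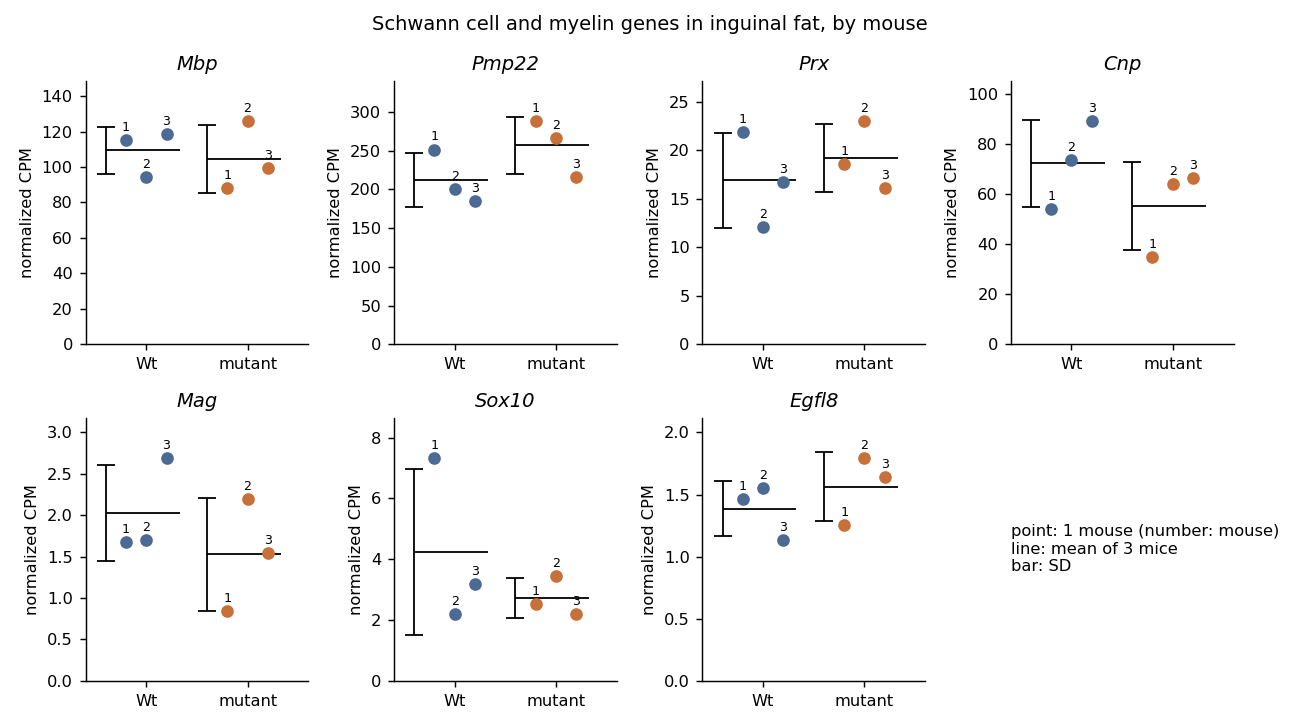
Normalized CPM (vertical axes, from 0) of the 7 Schwann cell and myelin genes in 3 Wt and 3 mutant mice. Points are mice with their number, lines are means and bars are SD (n = 3). In each panel the genotypes overlap, and Wt mouse 1 stands above the other mice for Sox10.

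Among the 7 genes, *Mbp*, a gene of the sheath itself, differed least between the genotypes. It encodes myelin basic protein, which holds the inner faces of the myelin membrane together, and lies at chromosome 18, 82475146 to 82585637, on the + strand (ENSMUSG00000041607). Wt mice 1, 2 and 3 had 115, 94.4 and 119 normalized CPM, and the mutants, in the same order, had 88.4, 126 and 99.4, so both the lowest and the highest mouse were mutant. The means were 109 ± 13.1 (SD, n = 3) in Wt and 105 ± 19.3 (SD, n = 3) in mutant mice. The log2 fold change was -0.07 (95% confidence interval -0.45 to 0.30, adjusted p = 0.791, limma).

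*Pmp22*, whose product is a small membrane protein of compact myelin, had the most reads of the 7. It is also transcribed outside nerves, in fibroblasts and other cells. The gene (ENSMUSG00000018217) lies at chromosome 11, 63128982 to 63159547, on the + strand. The values of Wt mice 1, 2 and 3 were 252, 200.2 and 186 normalized CPM, and the mutants 288.3, 267 and 216. The top mice were mutants 1 and 2, but Wt mouse 1 lay above mutant mouse 3. The means of 212 ± 34.7 (SD, n = 3) and 257 ± 36.9 (SD, n = 3) gave a log2 fold change of 0.28 (95% confidence interval -0.10 to 0.66, adjusted p = 0.338, limma).

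*Prx* encodes periaxin, a scaffold that couples the myelinating Schwann cell to its basal lamina and is made by few other cells. The gene (ENSMUSG00000053198) lies at chromosome 7, 27499324 to 27520214, on the + strand. Wt mice 1, 2 and 3 stood at 21.9, 12.1 and 16.7 normalized CPM and the mutants at 18.6, 23.0 and 16.1, with the genotypes interleaved. Its log2 fold change was 0.21 (95% confidence interval -0.36 to 0.77, adjusted p = 0.609, limma), and without Wt mouse 2 it was -0.01. An antisense gene, *Gm15541*, shares 300 exonic bases with *Prx*, at a mean of 0.63 against 18 for *Prx*.

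*Cnp* and *Mag*, genes of the non-compact parts of the sheath, had lower means in mutant than in Wt mice, with overlapping values. *Cnp* encodes a membrane-anchored phosphodiesterase of myelin-forming glia that other cells also express (ENSMUSG00000006782, chromosome 11, 100574904 to 100591729, + strand). Levels in Wt mice 1, 2 and 3 were 54.2, 73.4 and 89.1 normalized CPM, and the mutants 34.8, 63.8 and 66.5. The log2 fold change was -0.42 (95% confidence interval -1.12 to 0.29, adjusted p = 0.417, limma), and it shrank to -0.12 without mutant mouse 1. *Mag* encodes myelin-associated glycoprotein, which faces the axon (ENSMUSG00000036634, chromosome 7, 30899176 to 30914873, - strand). Its values were 1.68, 1.70 and 2.69 normalized CPM in the Wt and 0.838, 2.20 and 1.54 in the mutant animals, from as few as 16 reads in mutant mouse 1. Its log2 fold change of -0.35 (95% confidence interval -1.07 to 0.37, adjusted p = 0.499, limma) became -0.08 without that mouse.

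Both genes, and *Mbp* as well (88.4), were lowest in mutant mouse 1, the library nearly without lymphoid RNA. For *Cnp* the order of the mice was that of the summed lymphoid level in 6 of 6 mice, from 34.8 beside 44.2 in mutant mouse 1 to 89.1 beside 1365 in Wt mouse 3. For *Mag* 2 of 6 mice had the same rank in both, and for *Mbp* 1, *Pmp22* 0 and *Prx* 0 of 6. Such counts do not show direction. The Spearman rho with *Cnp*, and so with the lymphoid sum, was 0.714 for *Mag* and 0.314 for *Mbp*. It was -0.6 for *Prx* and -0.943 for *Pmp22*, which thus ran nearly opposite to the lymphoid sum. All 8 lymphoid genes were tested and 0 passed the FDR. The part of lymphoid cells in the *Cnp*, *Mag* and *Mbp* values was not tested. *Cnp* also shares 154 exonic bases with *Dnajc7* on the other strand, at a mean of 137 against 63.6 for *Cnp*, and whether counting used strand is not given in the sources used here.

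**Figure D2:**
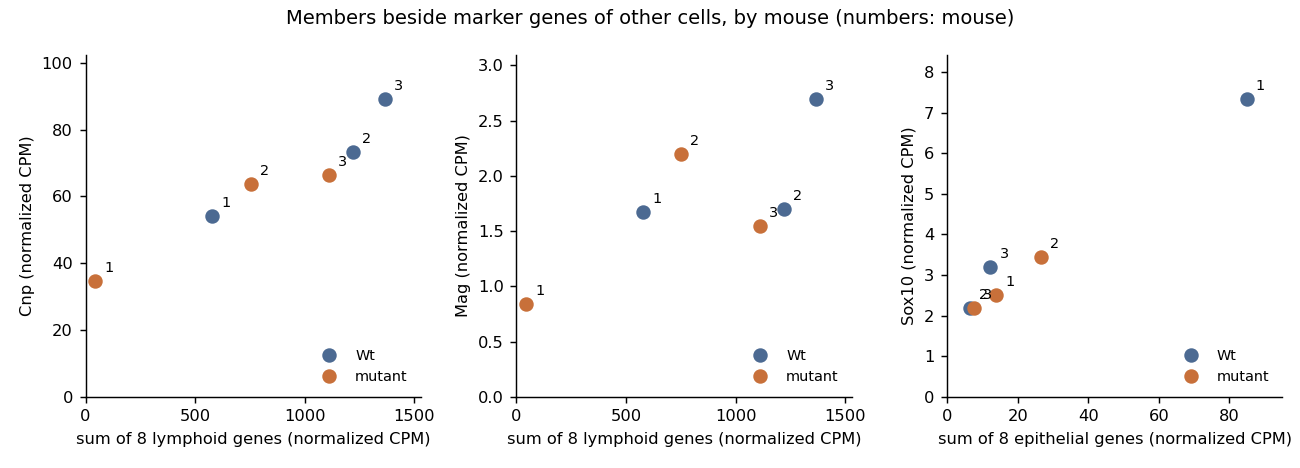
Normalized CPM of Cnp, Mag and Sox10 (vertical axes) against the summed normalized CPM of 8 lymphoid or 8 epithelial genes (horizontal axes), 1 point per mouse with its number. Cnp rises with the lymphoid sum through all 6 mice, and Sox10 at 7.33 belongs to the mouse with an epithelial sum of 84.8.

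*Sox10*, the lineage factor, varied most within a genotype, and its difference rested on 1 mouse. The gene (ENSMUSG00000033006) lies at chromosome 15, 79154908 to 79165240, on the - strand. Wt mice 1, 2 and 3 had 7.33, 2.19 and 3.20 normalized CPM, and the mutants 2.52, 3.46 and 2.20. Thus Wt mouse 1 was far above the rest, and the other 5 mice lay within 2.19 to 3.46. The log2 fold change of -0.42 (95% confidence interval -1.39 to 0.54, adjusted p = 0.535, limma) was 0.01 without Wt mouse 1. Wt mouse 1 was also the library with the high epithelial sum, with *Epcam* at 14.5 against 0.786 to 2.36 in the other mice, and *Sox10* is known from gland epithelium and melanocytes as well as from Schwann cells. Over the 6 mice, *Sox10* had a Spearman rho of 0.886 with *Prx*, 0.657 with *Mbp*, 0.314 with *Pmp22* and 0.257 with *Mag*. With *Egfl8* it was -0.086 and with *Cnp* -0.371. The parts of epithelial cells and of Schwann cells in the *Sox10* values were not tested. Of 7 epithelial genes tested, 0 passed the FDR. Melanocyte genes were low, with *Tyrp1* at 1 read or fewer, *Dct* at 0.673 to 2.20 and *Mitf*, which fat also expresses, at 15.9 to 23.7, and 0 of the 4 tested passed, although *Pmel* and *Mlana* had an unadjusted p under 0.05.

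*Egfl8*, which encodes an EGF-like domain protein, was low in every mouse (ENSMUSG00000015467, chromosome 17, 34613349 to 34615971, - strand). The level was 1.47, 1.56 and 1.14 normalized CPM in the Wt and 1.26, 1.80 and 1.64 in the mutant animals. These values came from 24 to 40 reads. The log2 fold change was 0.13 (95% confidence interval -0.30 to 0.56, adjusted p = 0.68, limma). *Agpat1*, a lipid synthesis gene on the other strand with a mean of 79, shares 101 exonic bases with *Egfl8*, and without strand the reads of the pair there cannot be told apart. *Gm20460*, which shares 615 exonic bases on the same strand, was listed at 0.

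Per kilobase of annotated exon, the mean level over 6 mice was 99.7 normalized CPM for *Pmp22*, 17.5 for *Cnp*, 12.6 for *Mbp*, 3.24 for *Prx*, 1.14 for *Sox10*, 0.838 for *Egfl8* and 0.436 for *Mag*. *Pmp22* was above *Cnp* and *Mbp* above *Prx* in all 6 mice, with no overlap of their ranges. The steps from *Cnp* to *Mbp*, from *Prx* to *Sox10*, from *Sox10* to *Egfl8* and from *Egfl8* to *Mag* lay within overlapping ranges.

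The 7 genes did not move as a block from mouse to mouse. Over the 6 mice, the 21 pairs had Pearson correlations of log2 levels from -0.88, for *Pmp22* and *Cnp*, to 0.90, for *Cnp* and *Mag*, with a median of 0.18. These are descriptions over 6 libraries that share a scaling. The 10 genes outside the list whose log2 level followed the mean of the 7 most closely over the 6 mice were *Gm41541*, *Rapgefl1*, *Rab29*, *Itgb4*, *Trappc11*, *Smug1*, *Mbtps1*, *Brd3os*, *Msl3l2* and *Pcdhb10*, with Pearson r of 0.96 to 0.99 (Spearman rho of 0.89 to 1). The mean of the 7 was itself followed by *Mbp* (r = 0.96) and not by *Pmp22* (r = -0.01). *Itgb4*, an integrin of Schwann cells, perineurium and epithelium, was at 17.0 to 25.4.

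Of 8 oligodendrocyte genes, 7 were too low to be tested. *Mobp* and *Opalin* had 0 reads in every mouse, *Mog* had at most 1, and *Olig1* had up to 9. The exception was *Myrf*, a myelin regulator of oligodendrocytes that epithelia such as mesothelium also express, with 5 to 23 reads in Wt and 102 to 169 in mutant mice.

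Of 16 other genes of the myelin sheath, 14 were tested, and 13 of these had a fold change above 0, beside 43.5% of all genes tested. Only *Drp2* passed the FDR with limma. It encodes dystrophin-related protein 2, the membrane partner of periaxin. For *Drp2*, Wt mice 1, 2 and 3 had 12.9, 7.63 and 11.8 normalized CPM, and the mutants 20.3, 28.2 and 19.7. All 3 mutant mice lay above all Wt mice, a 2.11-fold difference of the means (log2 fold change 1.06, standard error 0.23, adjusted p = 0.0438, limma). *Drp2* passed in none of the 6 fits that each lacked 1 mouse, and it did not pass with scaling to library size alone or with 10 reads required in every mouse.

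*Cldn19*, a tight junction gene of the sheath, was at 2.11 ± 0.274 (SD, n = 3) in Wt and 3.52 ± 0.201 (SD, n = 3) in mutant mice (log2 fold change 0.63, adjusted p = 0.0539, limma). *Gjc3*, a connexin gene, had a log2 fold change of 0.70 (adjusted p = 0.101, limma). *Mal*, a raft protein gene of the sheath, was at 6.24 ± 1.79 (SD, n = 3) in Wt and 8.25 ± 1.91 (SD, n = 3) in mutant mice, with overlapping values. In 6 of the 14, *Drp2*, *Cldn19*, *Gjc3*, *Fa2h* and *Bcas1* among them, all mutant mice lay above all Wt mice, beside 30.6% of all genes tested that did not overlap in either direction. The median log2 fold change of the 14 was 0.36.

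Of 18 other genes of Schwann cell identity, 14 were tested, 9 had a fold change above 0, and only *Ncam1*, a neural adhesion gene, passed the FDR. Wt mice 1, 2 and 3 had 2.81, 3.21 and 3.53 normalized CPM of *Ncam1*, and the mutants 6.29, 5.16 and 5.52, with no overlap (log2 fold change 0.74, standard error 0.15, adjusted p = 0.0332, limma). It too passed in none of the 6 fits with 1 mouse left out, nor without a filter on low values. Muscle and other tissues also express *Ncam1*. The summed level of 8 skeletal muscle genes was 11114 to 24009 in Wt and 17530 to 27520 in mutant mice, with 1 of 8, *Myh1*, past the FDR, and that of 8 mesothelial genes was 8.32 to 34 and 42.8 to 85.7, with 7 of 8 past it and higher in mutant mice. The mesothelial sum of 34 was that of Wt mouse 1, the library with the high epithelial sum, and Wt mice 2 and 3 had 8.32 and 11.5. The part of muscle and mesothelial cells in the *Ncam1* difference was not tested. *Myrf* was also higher in mutant mice, at 6.26 ± 2.28 (SD, n = 3) against 0.619 ± 0.383 (SD, n = 3) in Wt (log2 fold change 2.61, adjusted p = 0.00795, limma). Which cells gave the *Myrf* reads was not tested.

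Other receptor and lineage genes did not pass the FDR. *Erbb3*, the neuregulin receptor of Schwann cells, was at 9.66 ± 3.59 (SD, n = 3) in Wt and 8.04 ± 0.897 (SD, n = 3) in mutant mice. *Egr2*, the transcription factor of myelination, was at 5.58 ± 2.02 (SD, n = 3) and 5.19 ± 1.77 (SD, n = 3). *Scn7a* and *Art3*, the most abundant of the list, had log2 fold changes of 0.08 and 0.06. Their means over the 6 mice were 155 and 223, against 3.48 for *Sox10* and 18.0 for *Prx*. Their correlations with the mean of the 7 genes were -0.469 and 0.012. Which cells of the depot gave these reads was not tested. Both lists together held 28 tested genes, of which 2 passed (7.14%, beside 8.11% over all genes), 22 had a fold change above 0 and 8 (28.6%) did not overlap.

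**Figure D3:**
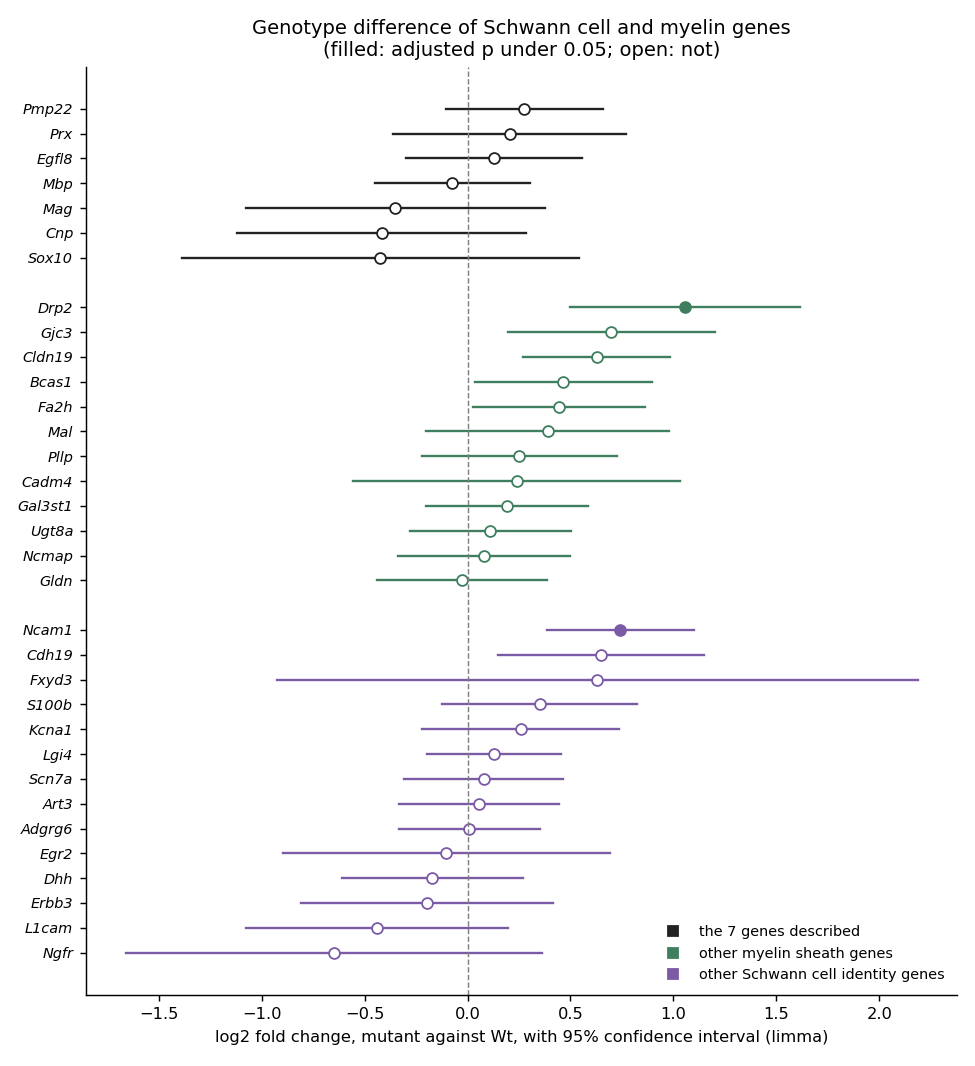
Log2 fold change, mutant against Wt, with its 95% confidence interval (horizontal axis, limma) for the 7 genes described and for 12 of the 14 tested sheath and the 14 tested Schwann cell identity genes (rows). Filled points passed an adjusted p of 0.05, and only Drp2 and Ncam1 are filled.

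Of 14 axon and neuron genes, 7 were tested, 0 passed the FDR 6 of the 7 had a fold change below 0, and *Tubb3* and *Calca* had an unadjusted p under 0.05. *Stmn2*, a growth cone gene, was at 8.31 ± 3.46 (SD, n = 3) in Wt and 5.03 ± 1.74 (SD, n = 3) in mutant mice. *Uchl1* was at 5.05 ± 0.397 (SD, n = 3) and 4.90 ± 0.509 (SD, n = 3). Of the genes of noradrenaline synthesis in sympathetic neurons, *Dbh* had 0 reads in every mouse, and *Th* had 0, 1 and 0 reads in the Wt and 10, 3 and 23 in the mutant animals. Each mutant had more *Th* reads than each Wt mouse, but the gene was too low to be tested. Of 4 thyroid hormone receptor and handling genes tested, 0 passed. Of 4 T3-responsive genes tested, 3 had a log2 fold change above 0, the largest 0.53, and did not pass. The 1 that passed was *Hr*, a nuclear corepressor gene, which was lower at 34.4 ± 4.11 (SD, n = 3) in mutant against 75.6 ± 14.9 (SD, n = 3) in Wt mice (log2 fold change -1.11, adjusted p = 0.0102, limma).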

How the data were processed

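Per the labels, Bowtie2 2.1.0, RSEM 1.2.15, edgeR and mm10 were used by the submitters, with no role given, and strand use is not given in the sources used here. The deposited values are a normalized signal per gene, CPM with a further scaling factor per mouse by the authors (0.962 to 1.109). In each mouse 100% of values above 0 were whole multiples of 1 read (within 0.01), which gave the reads. Of the 55573 identifiers, 99.8% were in GENCODE M21. Same-genotype libraries differed by more than counting noise, with a chi-square of 19.3 to 64.9 for each degree of freedom.

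Genotypes were compared with limma 3.58.1 (mean-variance trend) on log2(value + 0.5), which understates changes of low genes, in R 4.3.3, over the 16868 genes kept by filterByExpr of edgeR 4.0.16, with Benjamini-Hochberg adjustment at an FDR of 0.05, and checked on simulated data. Alternatives were other scalings, filters and pseudocounts, count tests (edgeR, DESeq2 1.42.0, limma-voom), GC correction, a block for mouse number, and fits with 1 mouse left out. Members and lists were chosen with earlier results of these data known. Named were all members, list genes past the FDR, otherwise the more abundant ones, and the 10 genes most like the members; *Gjc3*, *Cldn19*, *Fa2h*, *Bcas1*, *Erbb3*, *Egr2*, *Mog*, *Mobp*, *Opalin*, *Olig1*, *Dbh*, *Th*, *Tubb3*, *Calca* and *Tyrp1* were named after their values were seen. Some results of single list genes are not reported here, although the list counts include those genes.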

Additional observations from a re-analysis of the deposited data

How the results depend on the processing

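In every fit without a replicate block, 0 of the 7 genes passed. Same-numbered mice are different animals, and their deviations correlated at 0.69, 0.06 and 0.56 (4 of 6 mice closest to their own number), so the block is given only here. With the block 2 of the 7 passed, *Pmp22* (log2 fold change 0.28, adjusted p = 0.0377, limma) and *Cnp* (-0.42, adjusted p = 0.0362, limma). So did 5 of the 28 other myelin and Schwann cell genes tested, and 4063 of all 16868 genes (24.1%). With the block and GC correction there were 2 of the 7 and 3639 of all genes. With 1 mouse left out, the 7 genes gave 0 to 0, the other myelin and Schwann cell genes 0 to 2, and all genes 554 to 1005. Over those fits the log2 fold change ranged from -0.215 to 0.0393 for *Mbp* (above 0 without mutant mouse 1), from -0.0098 to 0.407 for *Prx* (below 0 without Wt mouse 2) and from -0.758 to 0.013 for *Sox10* (above 0 without Wt mouse 1). The other myelin and Schwann cell genes called were 1 by library size, without a filter or with 10 reads in every mouse, and 4 by DESeq2's Wald test or at an FDR of 0.1. All genes called were 2118 by DESeq2's Wald test, 598 with 10 reads in every mouse and 2263 at an FDR of 0.1. Of calls over all genes, 67.8% were higher in mutant mice, and 79.4% with scaling to library size. The causes were not tested. Depth limits *Mag*, *Egfl8* and *Sox10*, with 16 to 175 reads.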
